A study of Mus musculus with 9 samples.

Results

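The genes described here set mouse epiblast stem cells kept in CHIR99021 and XAV939 apart from both other cultures of the series. A gene was taken when all 3 CHIR/XAV arrays lay on one side of all 6 other arrays and the means of the other 2 cultures lay within 1 log2 unit of each other. Genes on chromosomes 15, X and Y were left out. Of 19938 measured genes, 18416 lay off these chromosomes, and 3172 (17.2%) had the pattern: 1636 were higher and 1536 were lower in CHIR/XAV cells. The choice used the measured values, so the differences of the chosen genes are a description.

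The series profiled 3 kinds of culture with 3 Affymetrix arrays each, as log2 expression values from RMA, a method that corrects background, normalizes and summarises the probes of a gene. The ESC group held embryonic stem cells of strain 129 in 2i, the combination of CHIR99021 and PD0325901. The epiblast stem cell (EpiSC) groups were both of strain CD1, with CHIR99021 and XAV939 in one and with FGF2 and activin in the other. The agents are listed for all samples together, as CHIR99021 at 3 µM, PD0325901 at 1 µM, XAV939 at 2 µM, FGF2 at 10 ng/ml and activin at 10 ng/ml, in a medium with 10% fetal bovine serum. The labels do not state which culture received which agent beyond the culture's name. They name no cell line or passage. Nor do they say that replicate arrays hold RNA of independent dishes, and the p-values below reflect array-to-array spread that may be technical. CHIR99021 was shared by the ESC and CHIR/XAV cultures, and strain CD1 by both EpiSC cultures. XAV939 was particular to the CHIR/XAV culture by name, as was any property of the cell line used for it, and these cannot be told apart.

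CHIR99021 inhibits the kinase GSK3, which otherwise marks beta-catenin for degradation. XAV939 inhibits the tankyrases, enzymes of the poly-ADP-ribosylating PARP family that mark the scaffold protein Axin for degradation, so that Axin persists and holds beta-catenin in the destruction complex. Beta-catenin in the nucleus works with TCF and LEF factors. ESCs stand for the naive state of the early epiblast and EpiSCs for the later, primed state, which in culture commonly rests on FGF2 and activin.

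The labels were checked against marker genes. Pou5f1, the factor Oct4 of both states, had mean log2 values of 11.33 in ESCs, 11.59 in CHIR/XAV EpiSCs and 11.68 in FGF2/activin EpiSCs. Of the naive markers, Esrrb was at 10.08, 4.93 and 4.72 in that order, and Zfp42 was at 8.53, 5.45 and 5.34. The primed marker Fgf5, a growth factor of the epiblast, was at 5.25, 8.86 and 8.88, and Otx2 was at 5.45, 9.10 and 9.41. Both EpiSC cultures were thus low in the naive and high in the primed markers. Array medians ran from 5.57 to 5.65. No detection calls accompany the values, and at the dim end signal and background merge: the median log2 value of 1015 olfactory receptor genes was 4.65, and the dimmest 40% of genes lay under 5.28. Where a group lay there, a difference is that of the measured values and may understate the change, and no fold is given where all arrays of the dim side did. In bulk RNA, fewer cells of a type and less RNA per cell cannot be told apart.

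Most of the 3172 genes differed little. Among the genes higher in CHIR/XAV cells the median difference from the mean of the other groups was 0.41 on the log2 scale, and 1132 of them (69.2%) differed by less than 1.5-fold. Among the lower genes the median difference was -0.44, and 1067 (69.5%) differed by less than 1.5-fold. The distance between the nearest CHIR/XAV array and the nearest other array, called the gap here, reached 0.5 in 221 higher and 166 lower genes and reached 1 in 65 and 36. The median within-group SD was 0.0964 over all genes. At the edge of the rule, Ipo4 had a gap of 0.00017 and was kept, while Prrx2, with a gap of -0.00026, was left out. Castor2, with other group means 0.987 apart, was kept, and Gclm, with a difference of -1.003 between FGF2/activin EpiSCs and ESCs, was not. The genes of the rule made up 8.88% (higher) and 8.34% (lower) of all eligible genes. In the other cultures the median log2 value was 6.35 over the higher genes and 8.03 over the lower genes, and 379 (23.2%) of the higher genes but 104 (6.77%) of the lower genes belonged to the dimmest 40% of genes.

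**Figure D1:**
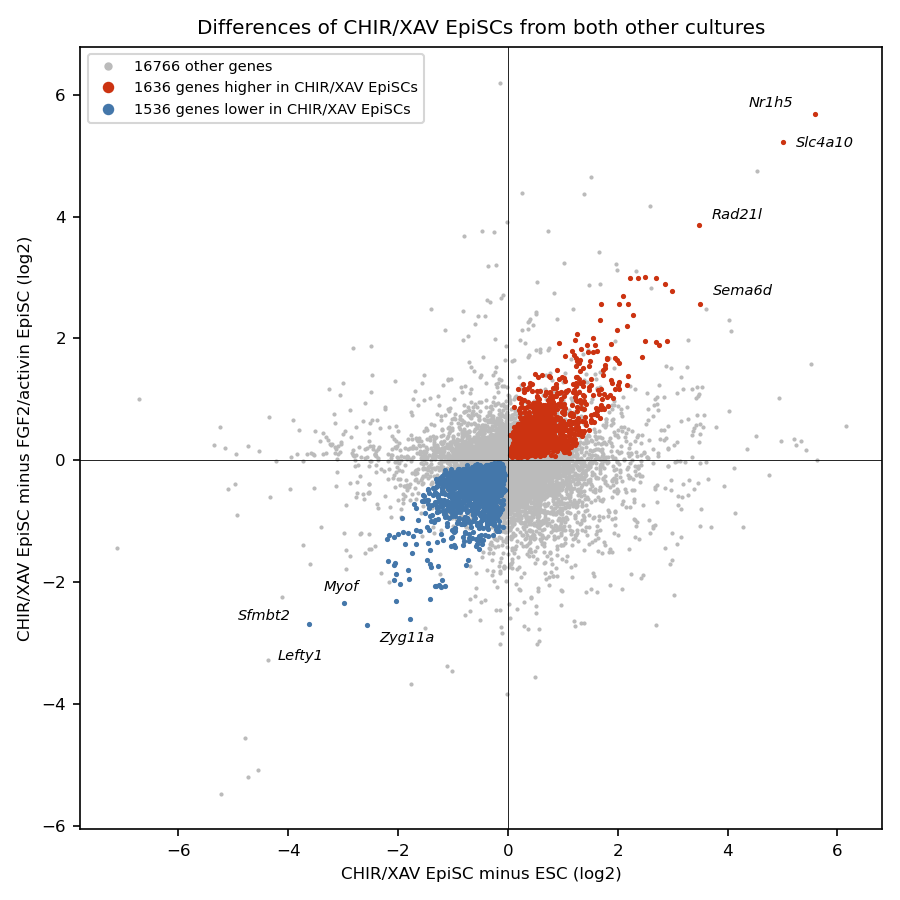
Each point is one of the 19938 measured genes; the x axis gives its log2 difference between CHIR/XAV EpiSCs and ESCs and the y axis that between CHIR/XAV and FGF2/activin EpiSCs. The 1636 higher genes (red) and 1536 lower genes (blue) lie along the diagonal because the rule asks for it and both axes share the 3 CHIR/XAV arrays; Nr1h5 and Slc4a10 stand farthest out among the higher genes.

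A linear model (limma) fitted over all 19938 genes called 1701 genes higher in CHIR/XAV cells than in each of the other groups (8.53%) and 1442 lower (7.23%), with a Benjamini-Hochberg adjusted p under 0.05 in both comparisons. The comparisons share the CHIR/XAV arrays. These calls take in all chromosomes and genes for which the other cultures are farther apart than 1 log2 unit. Against the mean of the other groups, 3948 genes were called higher (19.8%) and 3745 lower (18.8%). The balance of directions moved with the scaling. Of the genes called against both groups 54.1% were higher, and after each array was centred on its median 41.9% were. Of the genes of the rule 51.6% were higher, and 37.0% were after centring. "Called" below always means called against both other groups. The shares of 8.53% and 7.23% are the background for counts over a whole list. Without the dimmest 40% of genes the shares over all genes were 12.3% higher and 12.5% lower. Counts among these brighter genes are given for some of the lists, and these shares are their background. Most lists hold mainly brighter genes, and for them 8.53% and 7.23% are a low background.

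Nr1h5 had the widest gap, 5.40. It encodes farnesoid X receptor beta, a sterol-responsive nuclear receptor. Its log2 values were 4.17, 4.14 and 4.26 in ESCs, 9.66, 9.79 and 9.88 in CHIR/XAV EpiSCs, and 4.12, 4.03 and 4.12 in FGF2/activin EpiSCs. The 3 CHIR/XAV arrays stood far above the 6 others, which lay close together, and the difference from the mean of the other groups was 5.64 ± 0.06 (SE) on the log2 scale, with the other arrays in the dim range. Slc4a10, a sodium-driven bicarbonate transporter, followed with a gap of 4.84. It stood at 4.66, 4.59 and 4.86 in ESCs, at 9.70, 9.72 and 9.73 in CHIR/XAV EpiSCs and at 4.41, 4.53 and 4.54 in FGF2/activin EpiSCs, a difference of 5.12 ± 0.07, also from the dim range. Its CHIR/XAV arrays were the high ones and lay close together.

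Rad21l encodes a cohesin subunit of meiosis. Its values were 4.76, 4.96 and 4.95 in ESCs, 8.41, 8.25 and 8.46 in CHIR/XAV EpiSCs, and 4.58, 4.36 and 4.60 in FGF2/activin EpiSCs, so the groups were separated by 3.29. It was the single one of the 28 widest-gap genes with another probe set, which was not used in the choice and gave means of 4.70, 7.20 and 4.54, a difference of 2.58. Across all higher genes with other probe sets, 108 of 214 such probe sets (50.5%) also had the 3 CHIR/XAV arrays above the 6 others, against 10.7% of all second probe sets. For the lower genes the count was 54 of 125 (43.2%), against 6.63%.

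The roles of the next genes vary. Grb14, an adaptor that restrains the insulin receptor, was at 8.71, 8.67 and 8.77 in CHIR/XAV EpiSCs, above 5.86, 5.71 and 5.64 in ESCs and 6.04, 5.97 and 5.81 in FGF2/activin EpiSCs (7.37-fold). Car4, a membrane-anchored carbonic anhydrase, was at 7.83, 7.96 and 7.92, above 4.97, 4.95 and 5.21 in ESCs and 4.98, 5.13 and 4.94 in FGF2/activin EpiSCs. Slc27a2 activates and takes up very long-chain fatty acids. It was already at 8.25, 8.0 and 8.26 in ESCs and 7.92, 7.88 and 7.84 in FGF2/activin EpiSCs, and reached 10.73, 10.98 and 10.91 in CHIR/XAV EpiSCs (7.19-fold). Pklr, the pyruvate kinase of liver and red cells, was at 8.15, 8.34 and 8.22 in CHIR/XAV EpiSCs, against 5.73, 5.62 and 5.88 in ESCs and 5.20, 5.10 and 5.36 in FGF2/activin EpiSCs (6.74-fold).

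Sema6d, a transmembrane guidance ligand, separated all 3 cultures. Its values were 4.70, 4.75 and 4.73 in ESCs, 5.59, 5.59 and 5.79 in FGF2/activin EpiSCs and 8.24, 8.21 and 8.23 in CHIR/XAV EpiSCs. Etv2, an ETS transcription factor that starts blood and vessel formation, was at 4.58, 4.76 and 4.67 in ESCs, at 6.77, 7.16 and 6.89 in CHIR/XAV EpiSCs and at 4.39, 4.68 and 4.57 in FGF2/activin EpiSCs, dim in both other cultures. Usp44, a deubiquitinase that acts on histone H2B, was at 7.05, 7.04 and 6.97, at 9.50, 9.49 and 9.55 and at 7.54, 7.63 and 7.51 in the same order (4.68-fold). Tmem45a (6.44-fold), the lysosomal peptidase gene Ctsc (6.12-fold), the surface aminopeptidase gene Anpep (5.19-fold) and Kansl1l (4.55-fold) complete the 14.

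**Figure D2:**
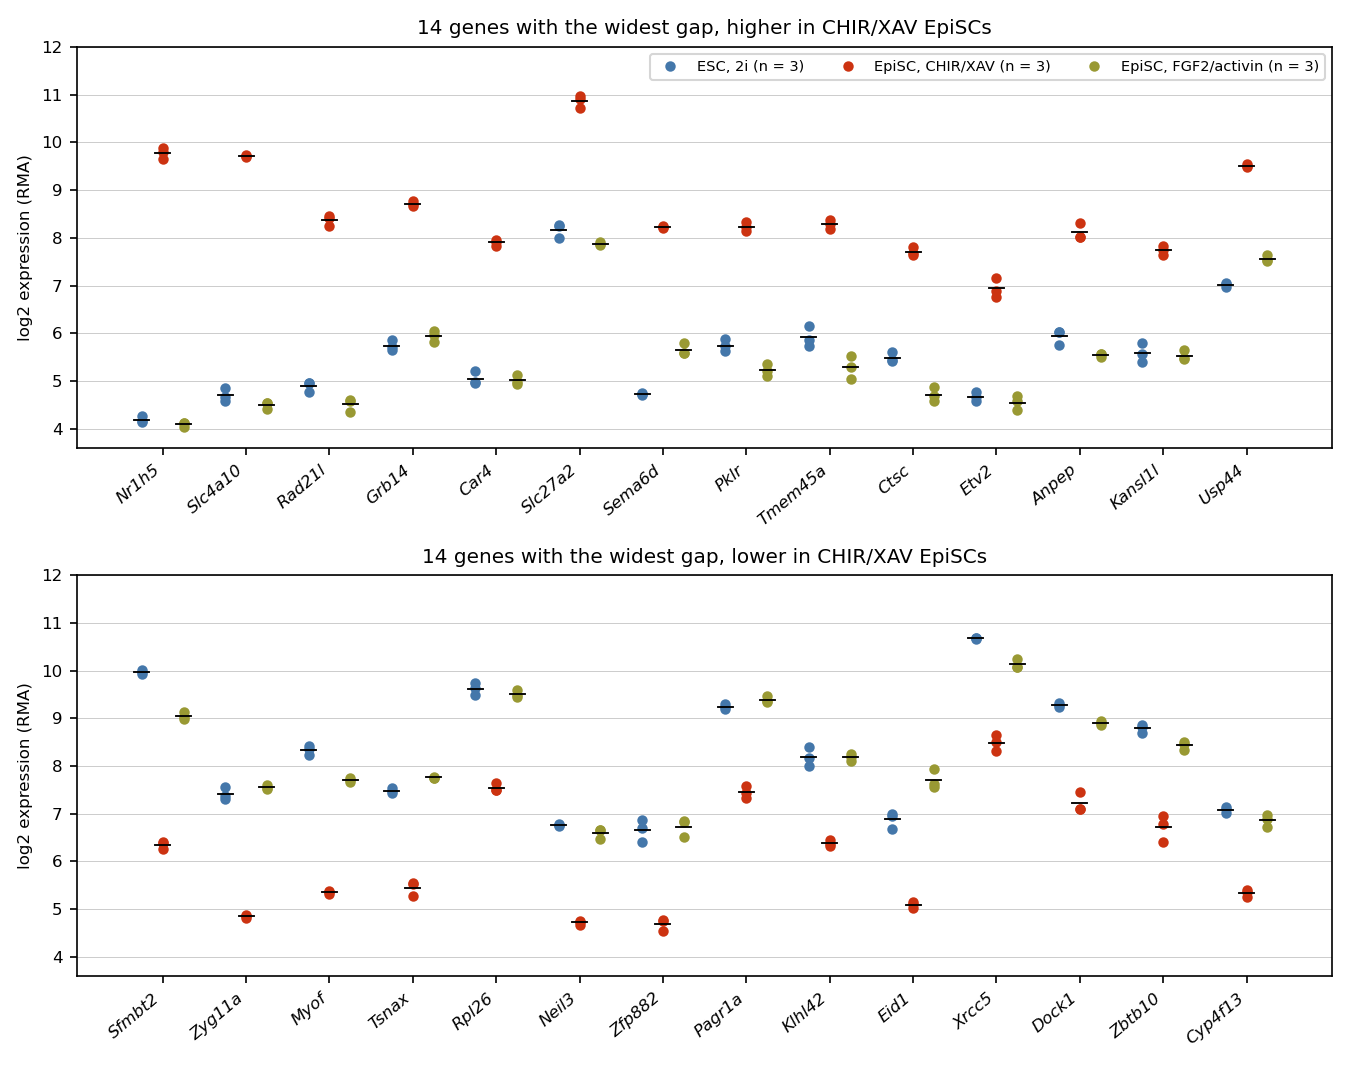
Log2 expression on every array (points; 3 per culture) with the group mean (bar) for the 14 genes with the widest gap in each direction. In the upper panel the CHIR/XAV arrays (red) of Nr1h5 and Slc4a10 sit near 9.7 with the other arrays under 4.9; in the lower panel the CHIR/XAV arrays of Sfmbt2 sit under 6.5 with the other arrays at 8.98 or more.

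Sfmbt2 was the most clearly separated gene on the lower side. It encodes a Polycomb-group protein with MBT domains, is expressed from the paternal copy in extraembryonic tissues, and carries a large microRNA cluster in an intron. Its values were 10.02, 9.97 and 9.93 in ESCs and 9.03, 9.13 and 8.98 in FGF2/activin EpiSCs, against 6.26, 6.41 and 6.39 in CHIR/XAV EpiSCs. The gap was 2.57, and CHIR/XAV EpiSCs lay below the mean of the others by 3.16 ± 0.06 on the log2 scale (8.92-fold). Zyg11a, a substrate receptor of a cullin ubiquitin ligase, was at 7.56, 7.31 and 7.38 in ESCs, 4.81, 4.86 and 4.87 in CHIR/XAV EpiSCs and 7.53, 7.61 and 7.52 in FGF2/activin EpiSCs. The arrays of the other cultures overlapped each other. Myof, which encodes the membrane-repair protein myoferlin, was at 8.41, 8.36 and 8.24 in ESCs, at 5.38, 5.32 and 5.36 in CHIR/XAV EpiSCs and at 7.66, 7.70 and 7.74 in FGF2/activin EpiSCs (6.33-fold).

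The other lower genes have varied roles. Xrcc5, the Ku80 subunit of the complex that joins broken DNA ends, was at 10.68, 10.68 and 10.67 in ESCs and 10.08, 10.08 and 10.25 in FGF2/activin EpiSCs, against 8.31, 8.66 and 8.50 in CHIR/XAV EpiSCs (3.78-fold). Neil3, a DNA glycosylase, differed by -1.95 on the log2 scale and was dim in CHIR/XAV EpiSCs. Pagr1a, a partner of histone H3K4 methyltransferases, was 3.65-fold lower, and Tsnax, the partner of translin, was 4.50-fold lower. Eid1, an inhibitor of the acetyltransferase p300, differed by -2.19 and was also dim there. Rpl26, a ribosomal protein gene, was at 9.64, 9.48 and 9.75, 7.49, 7.65 and 7.49, and 9.45, 9.49 and 9.59 in ESCs, CHIR/XAV and FGF2/activin EpiSCs. Ribosomal protein genes have near-identical processed copies, so the source of its signal is uncertain. Dock1, an activator of Rac, was 3.66-fold lower. Zfp882 (dim in CHIR/XAV EpiSCs), Zbtb10 (3.73-fold), Klhl42 (3.50-fold) and the cytochrome P450 gene Cyp4f13 (3.11-fold) complete this group.

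The first gene lists concern the pathway that CHIR99021 and XAV939 act on. Of 18 measured beta-catenin targets, 3 were called higher (Lef1, Nkd1, Nkd2) and 3 lower (Znrf3, Sp5, Cdx2), with a median difference of -0.13 from the mean of the other groups against 0.006 over all genes. Each count is 16.7% of the list, beside 8.53% and 7.23% of all genes. Among 16 brighter targets 3 were called higher and 5 (31.2%) lower, beside 12.3% and 12.5% of all brighter genes. After median centring of the arrays the counts over the 18 targets were 1 and 5. Lef1, both a target and a partner of beta-catenin, was at 6.91, 7.01 and 6.97 in ESCs, 7.92, 7.93 and 8.09 in CHIR/XAV EpiSCs and 7.27, 7.27 and 7.14 in FGF2/activin EpiSCs. Lef1 met the rule as higher, so its difference is a description. Axin2, a standard readout of beta-catenin activity, was at 8.33, 8.25 and 8.53 in ESCs, 7.32, 7.36 and 7.40 in CHIR/XAV EpiSCs and 7.53, 7.50 and 7.65 in FGF2/activin EpiSCs. It met the rule as lower, and was called lower against ESCs but not against FGF2/activin EpiSCs. Lgr5, an R-spondin receptor and target, was at 4.77, 7.69 and 7.50 on average and was not called against both.

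None of 16 measured genes of the destruction complex and the tankyrases was called higher. Lower calls were 2 (12.5%, beside 7.23% of all genes): Csnk1a1 and Fbxw11, a kinase and a ubiquitin ligase subunit that act on beta-catenin. Among brighter genes 3 of 16 (18.8%) were called lower, beside 12.5% of all brighter genes. The tankyrase gene Tnks stood at 9.01, 9.26 and 9.09 and Tnks2 at 11.13, 11.39 and 11.65 in ESCs, CHIR/XAV and FGF2/activin EpiSCs. Neither was called, nor were Axin1 (7.75, 7.84 and 7.90), Ctnnb1, the gene of beta-catenin (11.29, 11.26 and 11.42), or Apc (9.67, 9.56 and 9.62). Among 13 genes of the wider PARP family, all of them brighter genes, 3 were called higher (23.1%, beside 12.3% of all brighter genes) and none lower. Of these Parp2, a DNA-damage sensor, met the rule at 9.01, 9.42 and 9.13, while Parp8 and Parp14 differed too much between the other cultures.

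At the cell surface, 3 of 31 Wnt receptors and antagonists were called higher and 1 lower. Rspo1, a secreted enhancer of Wnt signalling, was at 5.30, 5.52 and 5.46 in ESCs, 6.81, 6.87 and 6.79 in CHIR/XAV EpiSCs and 6.05, 6.13 and 6.14 in FGF2/activin EpiSCs (2.08-fold). The Wnt-binding antagonist gene Sfrp1 was 1.45-fold higher and the receptor gene Fzd7 1.42-fold higher. Fzd10, another Frizzled receptor, was at 6.90, 7.08 and 6.77, at 6.15, 6.10 and 6.05 and at 7.54, 7.49 and 7.43, lowest on the CHIR/XAV arrays. Of 19 Wnt ligands 2 were called higher, Wnt8a and Wnt5b, and 1 lower, Wnt4. These shares lie near the background, and the ligand counts were 1 higher and 3 lower after median centring.

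Of 17 genes of the Nodal and activin pathway 6 were called lower (35.3%, beside 7.23% of all genes) and 1 higher, with 5 lower after quantile normalization and 6 of 14 (42.9%) among brighter genes. Lefty1, a feedback inhibitor of Nodal, was at 9.05, 8.89 and 9.03 in ESCs, 7.98, 7.96 and 7.75 in FGF2/activin EpiSCs and 4.70, 4.83 and 4.32 in CHIR/XAV EpiSCs. Adjusted p was 5.52e-13 and 3.98e-11 against the ESC and FGF2/activin groups, although the distance between those groups kept it out of the rule. Lefty2, its neighbour and relative, averaged 8.54, 4.82 and 6.20 in ESCs, CHIR/XAV and FGF2/activin EpiSCs. The members of the rule in this list were the inhibitor gene Smad7 (8.21, 7.39 and 7.61), the signal transducer gene Smad2 (9.06, 8.48 and 8.79) and the activin receptor gene Acvr2a (7.50, 7.09 and 7.62). Nodal itself, at 8.87, 8.84 and 10.17, was called lower against FGF2/activin EpiSCs (adjusted p = 9.41e-10) and not against ESCs (adjusted p = 0.68). Activin was a listed agent of the FGF2/activin culture alone by name, and serum was listed for all.

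Of 19 Notch pathway genes 5 were called higher (26.3%, beside 8.53% of all genes) and 1 lower, with the same counts under median centring and quantile normalization and 4 of 15 higher among brighter genes. The ligand genes Dll3 and Dll1 rose from low levels. Dll3 was at 5.38, 5.13 and 5.09 in ESCs, 6.48, 6.38 and 6.48 in CHIR/XAV EpiSCs and 4.62, 4.88 and 4.79 in FGF2/activin EpiSCs, and Dll1 averaged 4.76, 5.39 and 4.56. Of the target genes Hey1 was 1.65-fold and Nrarp 1.47-fold higher. Hes1, another target and a repressor, was lower, at 8.32, 8.15 and 8.10 in ESCs, 6.98, 7.04 and 6.92 in CHIR/XAV EpiSCs and 8.18, 8.22 and 8.18 in FGF2/activin EpiSCs (2.32-fold). Thus known targets of one pathway stood on both sides.

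Most imprinted genes that were called were higher: 8 of 20 (40%, beside 8.53% of all genes) were higher and 1 was lower. The counts were 8 and 3 after median centring, and 6 of 16 brighter genes were higher, beside 12.3% of all brighter genes. Over the list the median difference was 0.7 from ESCs but -0.05 from FGF2/activin EpiSCs. Meg3, Rian, Dlk1 and Rtl1, 4 of the 8 called higher, lie together on chromosome 12. There the paternally expressed Dlk1 and Rtl1 sit beside Meg3, Rian and a long array of microRNAs, which are expressed from the maternal copy. Dlk1, a membrane protein related to Notch ligands, was at 5.98, 6.19 and 6.12 in ESCs, 7.68, 7.47 and 7.56 in CHIR/XAV EpiSCs and 5.94, 6.0 and 6.12 in FGF2/activin EpiSCs (2.85-fold). Rtl1, derived from a retrotransposon, averaged 4.99, 5.72 and 5.05 in the same order. The noncoding genes Meg3 (6.83, 9.52 and 8.52 in ESCs, CHIR/XAV and FGF2/activin EpiSCs) and Rian (4.94, 7.60 and 6.70) were also called higher, but the other cultures lay too far apart for the rule.

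Of the 103 RefSeq genes from Dlk1 to Dio3, 48 were measured here. Of these 20 were called higher and none lower, beside 8.53% and 7.23% of all genes. CHIR/XAV EpiSCs had the higher mean for 45 of the 48 against ESCs and for 43 against FGF2/activin EpiSCs. The median differences were 0.54 and 0.25, beside -0.031 and 0.048 over all genes. Some genes were raised over ESCs in both EpiSC cultures, such as DQ267102 (7.93, 10.17 and 10.06 in ESCs, CHIR/XAV and FGF2/activin EpiSCs). Others, such as Dlk1 (6.09, 7.57 and 6.02), were raised in CHIR/XAV EpiSCs alone. The 13 genes of the rule in this stretch were all higher: Dlk1, Rtl1, the transcript AF357341 and 10 microRNA genes. Of these microRNA genes Mir136, Mir412, Mir487b, Mir299a and Mir154 had all 3 group means in the dim range under 5.28. Mir136 and Mir412 met the rule with gaps of 0.026 and 0.031 but were not called. Over the whole array 11 of 248 measured microRNA genes off chromosomes 15, X and Y met the rule as higher, so 1 of the 208 outside this stretch did so, Mir208a. Probe sets for microRNA genes read the precursor or its host transcript in total RNA, and neighbouring genes here may come from one transcript, so they are not independent of each other.

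The mature microRNAs of Mir380, Mir341, Mir679 and Mir154 are shown because these 4 genes had the largest differences from the mean of the other groups among the 10. They are RefSeq sequences (GRCm38.p6), written 5′ to 3′, and the capitals mark the seed, bases 2 to 8, which pairs with target messages.
mmu-miR-341-5p: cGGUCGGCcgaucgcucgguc
mmu-miR-341-3p: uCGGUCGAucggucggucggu
mmu-miR-679-5p: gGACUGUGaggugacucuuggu
mmu-miR-679-3p: aGCAAGGUccuccucacaguag
mmu-miR-380-5p: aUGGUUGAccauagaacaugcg
mmu-miR-380-3p: uAUGUAGUaugguccacaucuu
mmu-miR-154-5p: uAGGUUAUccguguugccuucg
mmu-miR-154-3p: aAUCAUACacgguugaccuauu
The seeds differ from one another. Of the 21 microRNA genes of the rule, 18 had an entry, with 31 mature names and 31 distinct seeds, so none of these genes shared a seed with another. Mir341 was at 7.13, 6.84 and 6.97 in ESCs, 8.06, 8.04 and 8.26 in CHIR/XAV EpiSCs and 7.40, 7.37 and 7.37 in FGF2/activin EpiSCs. Mir380 was at 3.76, 3.94 and 3.99, at 5.50, 5.54 and 4.93 and at 4.84, 4.62 and 4.77 in the same order, and Mir154 at 4.61, 4.41 and 4.51, 5.53, 5.48 and 4.79, and 4.68, 4.49 and 4.73. In both the third CHIR/XAV array lay below its fellows and close to the FGF2/activin arrays, as it did for Rian (7.90, 7.72 and 7.19 in CHIR/XAV EpiSCs). Mir679 averaged 5.94, 6.89 and 6.20.

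The microRNAs inside Sfmbt2 moved with their host. RefSeq lists 72 microRNA genes there, 4 were measured, and all 4 were called lower. Mir669b was at 7.87, 7.93 and 8.06 in ESCs, 6.59, 6.66 and 6.55 in CHIR/XAV EpiSCs and 7.03, 6.87 and 7.23 in FGF2/activin EpiSCs. Mir466 averaged 6.77, 5.80 and 6.35, Mir297b 7.50, 6.04 and 6.52, and Mir669c 6.25, 5.30 and 5.59. The cluster is made of near-identical copies, so which copy gave the signal is uncertain. The differences of these 4 were smaller than that of Sfmbt2 itself.

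**Figure D3:**
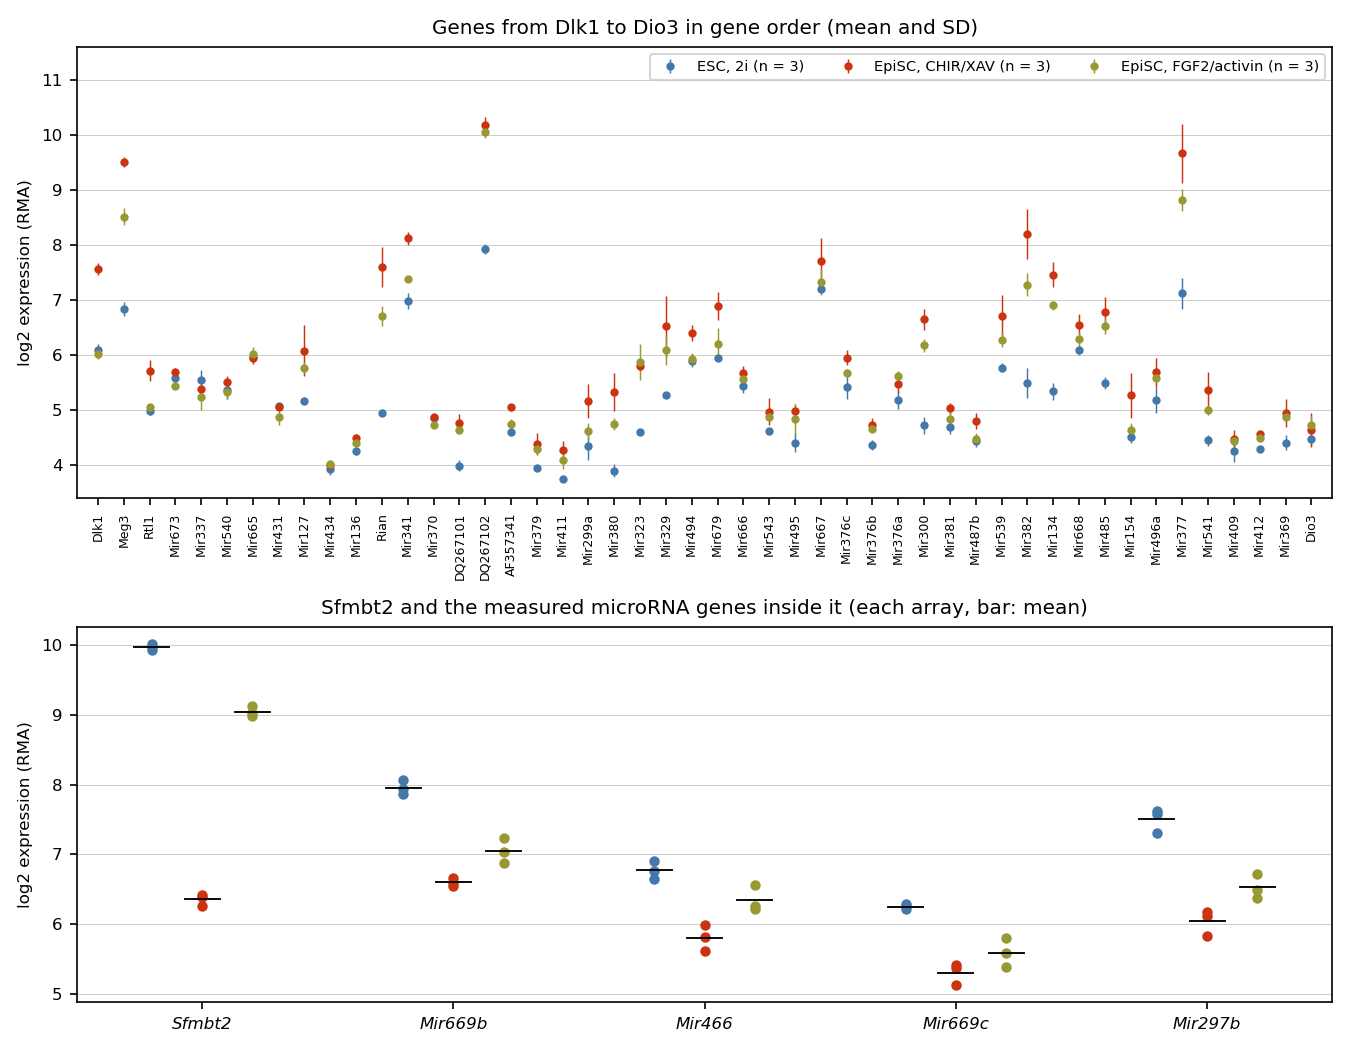
The upper panel gives the mean and SD of log2 expression (3 arrays per culture) for the measured genes from Dlk1 to Dio3 in gene order; the lower panel gives every array for Sfmbt2 and 4 microRNA genes inside it. CHIR/XAV EpiSCs (red) are above both other cultures for Dlk1, Meg3 and Rian and below them for Sfmbt2.

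Imprinted genes elsewhere were mixed. Igf2r, the receptor that clears insulin-like growth factor 2, was at 8.54, 8.48 and 8.36 in ESCs, 9.12, 9.37 and 9.58 in CHIR/XAV EpiSCs and 8.81, 8.78 and 8.87 in FGF2/activin EpiSCs (1.64-fold). Zim1 averaged 4.73, 5.49 and 4.82, and Ndn was 1.38-fold higher. Mest was called higher and lay outside the rule. The cell-cycle inhibitor gene Cdkn1c was lower, at 6.29, 6.49 and 6.34, 5.50, 5.72 and 5.64, and 6.30, 6.17 and 6.27 in the same order of cultures (1.62-fold).

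Of 8 genes of DNA methylation 1 was called higher and 1, Tet2, lower. Dnmt3b, a de novo methyltransferase, was the higher one, at 8.23, 7.99 and 8.10 in ESCs, 10.14, 10.10 and 10.08 in CHIR/XAV EpiSCs and 8.87, 8.89 and 8.86 in FGF2/activin EpiSCs (3.06-fold). Of 21 Polycomb subunits, 6 were called lower (28.6%, beside 7.23% of all genes) and none higher, with 4 lower and 1 higher after quantile normalization. Among brighter genes 6 of 20 (30%) were lower, beside 12.5% of all brighter genes. Bmi1, a subunit of the repressive complex PRC1, was at 7.38, 7.07 and 7.14 in ESCs, 5.94, 5.97 and 5.96 in CHIR/XAV EpiSCs and 6.19, 6.50 and 6.07 in FGF2/activin EpiSCs (1.70-fold). The other subunits of PRC1 that were called were the ubiquitin ligase gene Rnf2 (1.63-fold), Rybp (1.63-fold) and Pcgf2 (1.44-fold). Phf19 (1.64-fold) and Mtf2 recruit the second complex, PRC2. None of the 6 passed the test against at least 1.5-fold in both comparisons.

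Zinc finger genes with Zfp symbols, many of them KRAB repressors of transposons, were called lower in 46 of 317 cases (14.5%) and higher in 16. Without the dimmest 40% of genes 44 of 271 (16.2%) were called lower, against 12.5% of all genes in that set. After quantile normalization the counts were 36 and 22, and after median centring 54 and 13. Examples are Zfp882 in the group of widest gaps and Zfp827, which was at 8.19, 8.39 and 8.19, at 7.09, 7.07 and 7.15 and at 7.77, 7.77 and 7.73. Zfp39 was among the higher ones, at 7.23, 7.31 and 7.42, 8.40, 8.39 and 8.21, and 7.19, 7.43 and 7.20. The family shares similar sequence, and cross-reading between its members was not tested.

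Of the pluripotency lists, 6 of 19 naive genes were called lower (31.6%, beside 12.5% of all brighter genes) and none higher. The median difference of the naive genes was -3.15 from ESCs but 0.1 from FGF2/activin EpiSCs. All 19 naive genes lie among the brighter genes, as do the 18 primed genes. Klf5 and Sox2 met the rule. Tfcp2l1, Fbxo15 and Tet2 were too far apart between ESCs and FGF2/activin EpiSCs for it, and Nr0b1 is on the X chromosome. Sox2, the partner of Oct4, averaged 11.80 in ESCs, 11.03 in CHIR/XAV EpiSCs and 11.32 in FGF2/activin EpiSCs. Of 18 primed genes 5 were called higher (27.8%, beside 12.3% of all brighter genes) and 1 lower. Their median difference was 1.13 from ESCs but -0.1 from FGF2/activin EpiSCs. Besides Dnmt3b the members of the rule were the transcription factor gene Zic2 (1.58-fold) and the RNA-binding protein gene Lin28a (1.48-fold) on the higher side and the cadherin gene Cdh2 on the lower. Nanog, at 12.37, 10.25 and 9.86, and Dusp6, an ERK phosphatase, at 5.99, 10.11 and 10.24, separated ESCs from both EpiSC cultures.

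Genes of antigen presentation and the interferon response were called higher in 6 of 22 cases (27.3%, beside 8.53% of all genes) and lower in none. Among brighter genes 5 of 16 were higher, beside 12.3% of all brighter genes. Bst2, an interferon-induced protein that tethers virions, was at 5.74, 5.82 and 5.74 in ESCs, 7.43, 7.43 and 7.30 in CHIR/XAV EpiSCs and 5.53, 5.64 and 5.63 in FGF2/activin EpiSCs (3.26-fold). The immunoproteasome genes Psmb9 (2.60-fold) and Psmb8 (1.64-fold) and the peptide transporter gene Tap2 (2.45-fold), which neighbour one another on chromosome 17, were all higher. Psmb9 was at 5.37, 5.32 and 5.24, 6.72, 6.92 and 6.85, and 5.47, 5.64 and 5.66. The membrane protein gene Ifitm3, at 10.71, 11.90 and 9.42 on average, was called higher and lay outside the rule.

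Extracellular matrix and adhesion genes were called mostly as lower: 7 of 28 collagens, laminins and integrins (25%, beside 7.23% of all genes) were lower and 1 higher. After median centring the counts were 8 and 1. Among brighter genes 7 of 23 (30.4%) were lower, beside 12.5% of all brighter genes. Over the list the median difference was 0.03 from ESCs and -0.64 from FGF2/activin EpiSCs. Fn1, fibronectin, was at 11.74, 11.77 and 11.69 in ESCs, 9.38, 9.46 and 9.78 in CHIR/XAV EpiSCs and 10.84, 10.92 and 10.76 in FGF2/activin EpiSCs (3.35-fold). The basement membrane genes Nid1 (2.87-fold) and Nid2 (1.72-fold) and the integrin genes Itgav (1.85-fold) and Itgb3 (dim in CHIR/XAV EpiSCs) were also lower, while the laminin gene Lama3 was 1.51-fold higher. Fn1 also belongs to the mesenchymal list, of which 3 of 11 were called lower, with Snai2 and Cdh2. Of 16 YAP/TEAD-type genes 1 was called higher, Ccn2, and 2 lower, with a median difference of 0.01. Tead1, a DNA-binding partner of YAP, was at 10.83, 11.02 and 10.91 in ESCs, 9.42, 9.41 and 9.65 in CHIR/XAV EpiSCs and 11.21, 11.15 and 11.24 in FGF2/activin EpiSCs (2.96-fold), and Tead4 was 1.64-fold lower.

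Guidance genes went both ways. Of 32 semaphorins, plexins, ephrins and Eph receptors 7 were called higher (21.9%) and 6 lower (18.8%), beside 8.53% and 7.23% of all genes. Beside Sema6d the semaphorins Sema4a and Sema4d were higher. Nrp2, a co-receptor of class 3 semaphorins, was at 7.11, 7.07 and 6.87 in ESCs, 5.64, 5.76 and 5.73 in CHIR/XAV EpiSCs and 7.71, 7.82 and 7.76 in FGF2/activin EpiSCs (3.21-fold), and its ligand gene Sema3c was called lower outside the rule.

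Genes of the antioxidant response driven by the factor NRF2 were called higher in 5 of 17 cases (29.4%, beside 8.53% of all genes) and lower in none. After median centring 3 were higher and 1 was lower, and after quantile normalization 6 and 1. Among 16 brighter genes 5 and 1 were, beside 12.3% and 12.5% of all brighter genes. Over the list the median difference was -0.02 from ESCs and 0.41 from FGF2/activin EpiSCs. Gclc, the catalytic subunit of glutathione synthesis, was at 10.10, 10.05 and 9.97 in ESCs, 10.47, 10.50 and 10.51 in CHIR/XAV EpiSCs and 9.81, 9.77 and 9.75 in FGF2/activin EpiSCs (1.5-fold). Its partner Gclm and the cystine importer gene Slc7a11 were called higher outside the rule, Slc7a11 at 5.73, 7.70 and 4.48 on average. Txnrd1, thioredoxin reductase, was 1.36-fold higher and the peroxidase gene Prdx1 1.24-fold higher.

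Genes of the response to foreign compounds were called in both directions. Cyp1b1, a target of the aryl hydrocarbon receptor, was at 5.54, 5.63 and 5.61 in ESCs, 6.73, 6.79 and 6.94 in CHIR/XAV EpiSCs and 4.91, 4.78 and 4.83 in FGF2/activin EpiSCs (3.04-fold). Cyp1a1, another target, was at 5.10, 4.95 and 4.97, 5.94, 5.93 and 5.83, and 4.42, 4.43 and 4.39. The receptor gene Ahr was lower, at 7.41, 7.42 and 7.63, 7.14, 7.28 and 7.30, and 8.31, 8.27 and 8.30. In the list of 14 these were 2 called higher and 2 lower, the other being the exporter gene Abcb1a. Among 16 heat shock and unfolded protein genes, all of them brighter genes, 4 were called higher (25%, beside 12.3% of all brighter genes) and 1 lower. Hspb1, a small heat shock protein, was the lower one, at 11.82, 11.79 and 11.96, 10.49, 10.68 and 10.37, and 11.49, 11.52 and 11.59 (2.27-fold).

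Of 10 Myc family genes 2 were called lower (20%, beside 7.23% of all genes), Mycn (1.58-fold) and Mlx (1.34-fold). Of 20 germline genes 4 were called higher (20%, beside 8.53% of all genes) and 1, Prdm1, lower. Among 10 brighter germline genes 2 were higher and 1 lower, beside 12.3% and 12.5% of all brighter genes. Of 323 solute carrier genes 34 were called higher (10.5%) and 25 lower (7.74%), near the background. Of 19 genes induced by ERK signalling only the feedback inhibitor gene Spry1 was called, as higher.

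**Figure D4:**
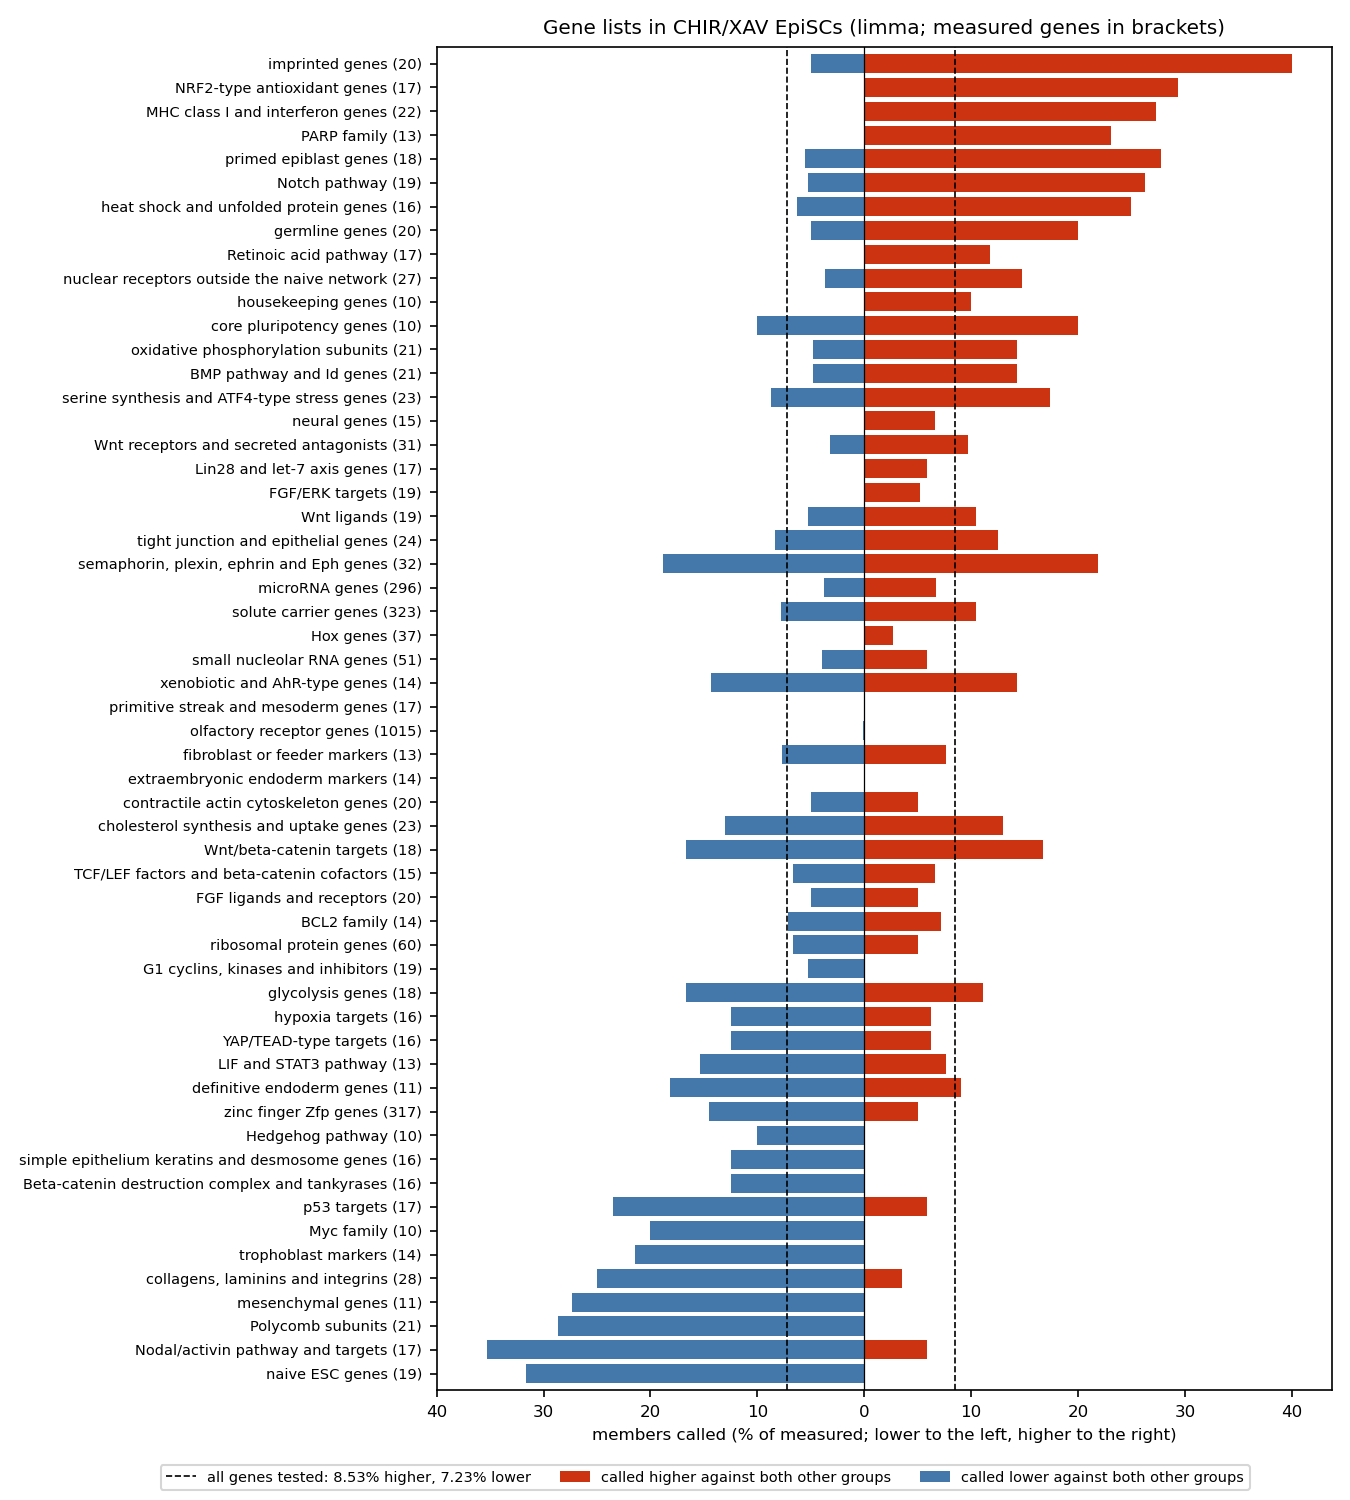
Share of the measured genes of each list with at least 10 measured that limma called higher (red, to the right) or lower (blue, to the left) in CHIR/XAV EpiSCs against both other groups; dashed lines mark the shares over all genes, 8.53% and 7.23%. Imprinted, NRF2-type and primed epiblast genes reach farthest to the right, and Nodal/activin and naive genes farthest to the left. The median difference from FGF2/activin EpiSCs was -0.05 for imprinted, -0.1 for primed epiblast and 0.1 for naive genes. That from ESCs was -0.02 for NRF2-type genes.

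Markers of other cell types were read in the same way. Among 17 primitive streak and mesoderm genes and 14 extraembryonic endoderm markers none was called in either direction. Of 15 neural genes 1 was called higher, of 11 definitive endoderm genes 1 was higher and 2 were lower, and of 14 trophoblast markers 3 were lower, among them Cdx2 (5.97, 4.91 and 5.14). Of 13 fibroblast markers 1 was called higher and 1 lower. The higher one, Thy1, averaged 5.45, 7.21 and 5.70 in ESCs, CHIR/XAV and FGF2/activin EpiSCs. The part of other cells in the lists above was not tested.

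The promoters of the genes of the rule were read for the TCF/LEF motif (CTTTGAA or CTTTGAT on either strand) in RefSeq windows (GRCm38.p6) from 250 bases before to 50 bases after the start. It occurred in 93 of 1624 windows of higher genes (5.73%) and 93 of 1603 windows of lower genes (5.80%), against 7.36% of 19177 windows of all genes. Windows of lower genes held a median of 22 CpG dinucleotides, those of higher genes 17.5 and those of all genes 15. A motif match describes only these letters in this window.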

How the data were processed

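The deposited values are log2 expression per probe set, made by the authors with RMA, for which the submitters' processing notes name Partek. No version, chip file or array quality step is given in the sources used here. Of 35399 probe sets, 21789 carried 1 gene symbol in the platform's annotation, 1621 several and 11989 none. Probe sets with 1 symbol gave 19938 genes, and 999 genes had several probe sets, of which the one chosen was the brightest on average. RefSeq (GRCm38.p6) tables gave chromosomes for 19919 genes, and 19 had none. Chromosomes 15, X and Y held 1503 genes. Sample groups and replicate numbers come from the sample titles.

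A limma model (version 3.58.1, R 4.3.3) with the 3 groups was fitted on all 9 arrays and all genes, with Benjamini-Hochberg adjustment and a threshold of 0.05. On simulated data with the real genes it recovered 65.7% of 67 genes changed by 0.5 on the log2 scale, 98.5% of 67 changed by 1 and 100% of 66 changed by 2, with 0 false calls among 176. In the simulated data every gene had equal means in the ESC and FGF2/activin groups and independent noise. The count of false calls thus does not measure the error rate in the real data. The precision is limited by the number of arrays. The files state no batch.

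Named genes were the 14 with the widest gap in each direction, leaving out predicted and clone names, up to 4 genes of each list described with the largest difference from the mean of the other groups, and a fixed panel of pathway genes. Further list genes are named to say which were called. The genes of the rule and the gene lists were chosen with earlier results of these data known. Alternatives covered other probe sets, dim genes, scaling, variance models, array weights, the replicate block, fits of 2 groups, a 1.5-fold test and leaving out each array.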

Additional observations from a re-analysis of the deposited data

How the results depend on the processing

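Counts of genes above or below all other arrays, called against both groups or called against the mean of the others stayed within 1.5 times their value in the report, other than under the stricter rules given next. Tested against a change of at least 1.5-fold, 222 genes were called higher and 134 lower against both groups, 635 and 518 against the mean of the others, and 51 list genes were called instead of 340. A gap of at least 0.5 left 221 higher and 166 lower genes. Lef1 and Sox2 were not called in the 1.5-fold test. Leaving out each array in turn gave 1720 to 2096 higher and 1616 to 1924 lower genes by the rule, which eases with fewer arrays, and 1483 to 1656 and 1245 to 1392 calls against both groups. Axin2 was called lower against both groups in 6 alternatives, among them median centring and without the dimmest 40% of genes, Gsk3b was called lower under median centring, and Tnks and Lgr5 were called higher in 3 each.

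Same-numbered arrays did not deviate together in every pair (correlations from -0.0705 to 0.2386), so the numbers were not taken to pair the arrays. With the replicate block, 1689 genes were called higher and 1415 lower against both groups, 3938 and 3732 against the mean of the others, and 343 list genes. Axin2 was called lower against both groups with the block.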

Other observations

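Several genes of meiosis and the germ line beyond the fixed list had the pattern of Rad21l; they were chosen after their values were seen. Rbm46, an RNA-binding protein needed to enter meiosis, was at 5.52, 5.63 and 5.25 in ESCs, 7.19, 7.19 and 7.12 in CHIR/XAV EpiSCs and 4.51, 4.63 and 4.67 in FGF2/activin EpiSCs (4.38-fold). Iho1, which acts in meiotic DNA breakage, was 2.98-fold higher and Boll, a germ cell RNA-binding protein, 2.63-fold higher. Other germ cell genes did not follow: the piRNA pathway gene Mael was at 7.63, 7.69 and 7.65, 7.36, 7.52 and 7.46, and 4.29, 4.16 and 4.28, and the meiotic cohesin gene Stag3 was also highest in ESCs. Prdm1, a repressor that specifies germ cells, was lower, at 6.47, 6.37 and 6.32, 5.46, 5.23 and 5.14, and 6.33, 6.39 and 6.36.

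Chromosome 15, left out of the rule, held 206 genes with all CHIR/XAV arrays above all others and the other means within 1 log2 unit, 27.4% of its 752 genes, and 47 with the reverse (6.25%). On the other autosomes the higher share lay between 6.78% and 10.6%. The X chromosome had 81 higher (10.9%) and 48 lower genes. Of 13610 probe sets with no symbol or several, 584 were above and 719 below all other arrays with the other means within 1 log2 unit. Of these, 14 and 20 had a gap of at least 1. They were not sorted by chromosome, so any on chromosomes 15, X and Y are included.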
